A study of Rattus norvegicus with 12 samples.

Results

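The 6 genes described here are mitochondrially encoded subunits of respiratory complexes III, IV and V, the protein complexes that carry out the last steps of oxidative phosphorylation. They are Mt-cyb (ENSRNOG00000031766) of complex III, Mt-co1 (ENSRNOG00000034234), Mt-co2 (ENSRNOG00000030371) and Mt-co3 (ENSRNOG00000030700) of complex IV, and Mt-atp6 (ENSRNOG00000031979) and Mt-atp8 (ENSRNOG00000033299) of complex V. They were chosen by identifier, and all 6 were among the 16534 features of the table and passed its filter on low values. The deposited table gives identifiers without symbols, so the symbols are those listed with the identifiers and were not checked against an annotation.

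The study sequenced motor cortex messenger RNA of 12 rats (Rattus norvegicus) in 4 groups of 3: unstimulated control rats, unstimulated rats modelling Parkinson's disease (PD) after 6-OHDA, and rats of either kind that received cortical stimulation. 6-OHDA (6-hydroxydopamine) is a toxin taken up by catecholamine neurons. An array of graphene electrodes over the primary motor cortex delivered 130 Hz stimulation for 1 hour each day during 2 weeks. The labels do not say whether this schedule was used in stimulated controls or whether unstimulated rats carried an array, nor do they give strain, sex or age. Below, lesioned stands for both PD groups, as labelled, and unlesioned for both control groups. Libraries held 42905441 to 62082830 counted reads, of which each member took 53693 to 1731854, so counting error was at most 0.432% of a member's value and small beside the spread between rats. Markers of the tissue and of its cell types were not analysed here, since identifiers were not paired with symbols. In bulk tissue, fewer cells of a type and less RNA per cell cannot be told apart, and neither can fewer mitochondria and less RNA per mitochondrion.

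Mitochondrial DNA encodes a small set of core subunits of the respiratory chain, and nuclear genes encode the remaining subunits. Cytochrome b (Mt-cyb) forms the quinone-binding sites of complex III, which passes electrons from ubiquinol to cytochrome c by way of its Rieske iron-sulfur protein and a c-type cytochrome, both encoded in the nucleus. Complex IV (cytochrome c oxidase) hands these electrons to oxygen: Mt-co1 carries the site of oxygen reduction, Mt-co2 the copper centre that accepts electrons from cytochrome c, and Mt-co3 completes the catalytic core. In complex V (ATP synthase), Mt-atp6 forms part of the proton channel and Mt-atp8 belongs to the stalk in the membrane. All 6 are transcribed from the same strand of the mitochondrial genome as parts of long precursors, and Mt-atp8 and Mt-atp6 lie on a single messenger RNA with overlapping reading frames. The mature messengers carry poly(A) tails, so they enter a library made by poly(A) selection. Neurons rely heavily on oxidative phosphorylation, and complex I has long been studied in Parkinson's disease.

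These genes were among the most abundant features. By mean CPM (each library's counts scaled to a common total) over the 12 libraries, Mt-co1 ranked 1, Mt-atp6 2, Mt-co3 3, Mt-co2 4, Mt-cyb 5 and Mt-atp8 40 of 16534. Gene lengths were not available in the tables used here, so these ranks describe reads and not transcript numbers. Together the 6 genes took 5.74%, 5.78% and 5.12% of the reads in control rats 1 to 3, and 4.89%, 5.06% and 5.12% in stimulated controls 1 to 3. In PD rats 1 to 3 they took 7.16%, 7.88% and 6.61%, and in stimulated PD rats 1 to 3 they took 6.73%, 6.66% and 8.18%. Each lesioned rat thus lay above each unlesioned rat. Group means were 5.55% ± 0.372 for control and 5.02% ± 0.118 for stimulated control rats, and 7.22% ± 0.639 for PD and 7.19% ± 0.859 for stimulated PD rats (SD, n = 3).

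**Figure D1:**
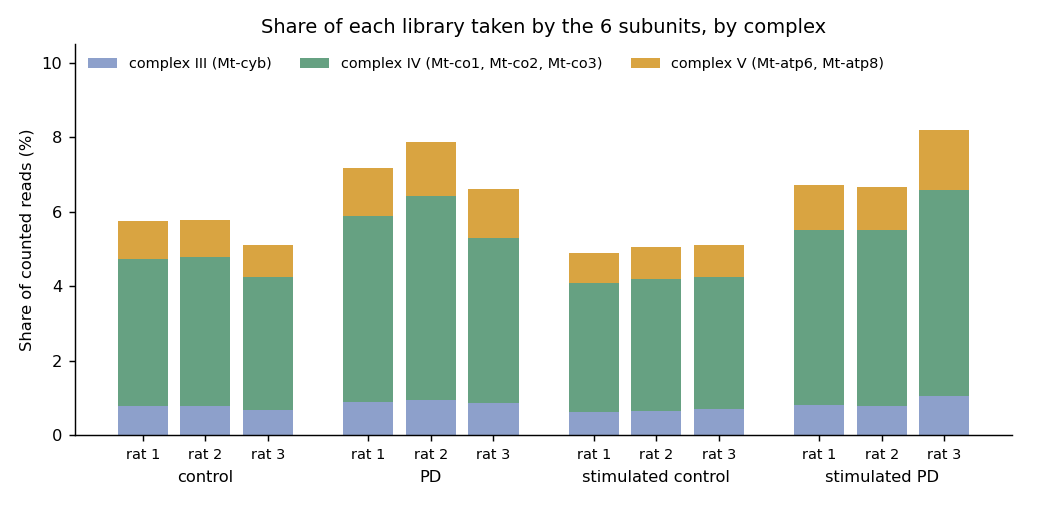
Share of each library's counted reads (%, vertical axis) taken by the 6 genes in each of the 12 rats, stacked by complex. The 6 lesioned rats stand between 6.61% and 8.18% and the 6 unlesioned rats between 4.89% and 5.78%, and complex IV takes the largest share in each rat.

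Because CPM is a share of each library, a higher value can reflect more of these RNAs or less of the others. Complex IV subunits took 3.68% ± 0.242 of reads in unlesioned and 4.98% ± 0.440 in lesioned rats, complex V subunits 0.904% ± 0.0768 and 1.33% ± 0.171, and Mt-cyb 0.705% ± 0.0637 and 0.895% ± 0.0969 (SD, n = 6).

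The difference between lesioned and unlesioned rats is described first for Mt-cyb, the only member in complex III. In control rats 1 to 3 Mt-cyb stood at 7750.3, 7841 and 6708 CPM, and in stimulated controls at 6269, 6620 and 7087 CPM. It stood at 8835, 9503 and 8582 CPM in PD rats 1 to 3 and at 8239, 7931 and 10591 CPM in stimulated PD rats. All 6 lesioned rats were higher, but the lowest of them, stimulated PD rat 2, exceeded the highest unlesioned rat, control rat 2, by only 1.15%. Averaged over stimulated and unstimulated rats, Mt-cyb was 1.27-fold higher in lesioned rats (log2 difference 0.34, SE 0.11, limma adjusted p = 0.0470). Of the 12 fits that each left out 1 rat, this call held only in the one without stimulated PD rat 2, and the adjusted p reached 0.112 without stimulated control rat 1 and ran from 0.000217 to 0.510 over all 25 alternatives.

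Mt-co1 gave the most reads of all features. It stood at 23926, 24187 and 21887 CPM in control rats 1 to 3 and at 20871, 21183 and 20859 CPM in stimulated controls, which lay very close together. In PD rats 1 to 3 it stood at 30188, 32041 and 24851 CPM, and in stimulated PD rats at 27691, 28317 and 31853 CPM. The lesioned rats again lay above the unlesioned ones, with PD rat 3 only 2.74% above control rat 2. The 1.31-fold difference missed the threshold (log2 difference 0.39, SE 0.13, limma adjusted p = 0.0510, 95% interval of the fold 1.08 to 1.61). It passed in 8 of 25 alternatives, with adjusted p from 1.04e-05 to 1 over all of them. Passing limma fits included those without PD rat 3 (adjusted p = 0.0426) or stimulated control rat 2 (adjusted p = 0.0452). Others were a minimum of 5 CPM (adjusted p = 0.00985) and no trend in the prior variance (adjusted p = 0.0125).

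The other core subunits of cytochrome c oxidase were further apart between lesioned and unlesioned rats. Mt-co2 stood at 7258, 7338 and 6104 CPM in control, 6068, 6361 and 6807 CPM in stimulated control, 9606, 10534 and 8773 CPM in PD and 9140.3, 8815 and 10615 CPM in stimulated PD rats 1 to 3. Its lowest lesioned rat lay 19.6% above its highest unlesioned rat, and it rose 1.44-fold (log2 difference 0.53, SE 0.11, limma adjusted p = 0.00958, and 3.75e-08 to 0.227 over 25 alternatives). Mt-co3 stood at 8469.9, 8494 and 7772 CPM in control, 7534, 7751 and 7745 CPM in stimulated control, 10338, 12165 and 10806 CPM in PD and 10087, 10068 and 12651 CPM in stimulated PD rats 1 to 3. Here the gap was 18.5%, and Mt-co3 rose 1.38-fold (log2 difference 0.46, SE 0.11, limma adjusted p = 0.0142, and 5.87e-07 to 0.844 over 25 alternatives).

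Of the complex V pair, Mt-atp8 showed the largest average difference of the 6 genes, whereas Mt-atp6 and Mt-co2 were close and changed places in 3 of the 12 fits that left out 1 rat (PD rat 3, stimulated control rat 3 or stimulated PD rat 3) and after quantile normalization. Mt-atp6 stood at 8786, 8658 and 7693 CPM in control, 7152, 7702 and 7550.0 CPM in stimulated control, 10854, 12881 and 11414 CPM in PD and 10519.9, 9697 and 14154 CPM in stimulated PD rats 1 to 3. It rose 1.45-fold in lesioned rats (log2 difference 0.54, SE 0.12, limma adjusted p = 0.0127, and 2.63e-06 to 0.572 over 25 alternatives), with stimulated PD rat 3 the highest of all 12. Mt-atp8 stood at 1253, 1289 and 1017 CPM in control, 1012, 1017 and 1106 CPM in stimulated control, 1787, 1691 and 1635 CPM in PD and 1616, 1802 and 1969 CPM in stimulated PD rats 1 to 3. Its lowest lesioned rat, stimulated PD rat 1, lay 25.4% above its highest unlesioned rat, the widest gap of the 6. Mt-atp8 rose 1.57-fold (log2 difference 0.65, SE 0.09, limma adjusted p = 0.00333, and 5.59e-14 to 0.0229 over 25 alternatives).

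**Figure D2:**
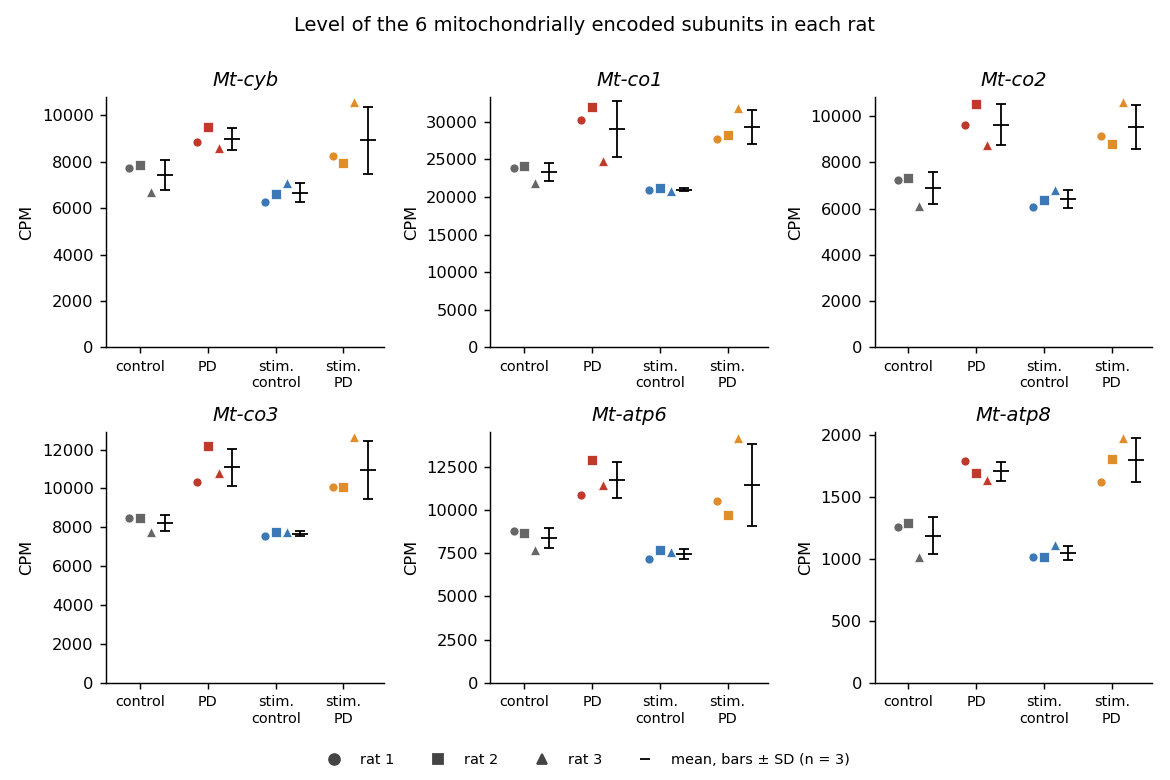
Level of each gene (CPM, vertical axes from 0) in the 3 rats of each group (points, shaped by rat number), with the group mean and SD beside them. In all 6 panels the PD and stimulated PD rats lie above the control and stimulated control rats, narrowly for Mt-cyb and Mt-co1 and most widely for Mt-atp8.

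In all, 5 of the 6 genes were called higher in lesioned rats, where 4.99% of the 14985 features tested were called higher and 18.0% lower. The median log2 difference was 0.49 for the 6 genes and -0.12 for all features tested. Lesioned and unlesioned rats did not overlap for any of the 6, all in the higher direction, against 2.48% of features. That background moved with scaling, to 1887 features higher and 1609 lower with TMM factors against 748 and 2703 as deposited, and with single rats: 386 to 491 features were called higher when rat 1 or 2 of the controls, or rat 1 or 3 of either stimulated group, was left out, and 1285 without PD rat 2. The calls for Mt-co2, Mt-co3, Mt-atp6 and Mt-atp8 held in each fit that left out 1 rat. All 6 genes were called by edgeR, which called 1625 features higher and 1640 lower, and by DESeq2, which called 2214 higher and 2152 lower. Of 25 alternatives, Mt-co2, Mt-co3 and Mt-atp6 each passed in 23, Mt-atp8 in 25, Mt-cyb in 9 and Mt-co1 in 8. The settings that lost calls, other than leaving out 1 rat, are given in the closing section. Because the 6 genes varied together from rat to rat (below), they are not 6 separate pieces of evidence. Among the other 72 features that averaged 1000 CPM or more, a bound chosen after the values were seen, 11 were called higher and 9 lower, and their median log2 difference was 0.07.

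The direction was also read after rescaling the libraries. All 6 estimates stayed positive with TMM factors (0.49 to 0.80 on the log2 scale), with median-of-ratios factors (0.48 to 0.79) and with CPM taken over reads outside the 6 genes (0.37 to 0.68), whereas after quantile normalization Mt-cyb and Mt-co3 had negative estimates, the log2 difference of Mt-co1 was 0 and only Mt-atp8 was called. Quantile normalization gives the feature of a given rank the same value in each library, so the top feature, Mt-co1, cannot differ there. Mt-atp6, Mt-co3, Mt-co2 and Mt-cyb, at ranks 2 to 5 by mean CPM, could differ there only through a change of rank. For all members but Mt-atp8 this setting gave the largest adjusted p between lesioned and unlesioned rats. TMM moved the median log2 difference of all features from -0.12 to 0.01, and the 6 genes moved up with it.

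Unstimulated PD rats were compared with unstimulated control rats. Mt-atp8 averaged 1186 ± 148 CPM in control and rose to 1704 ± 77.0 CPM in PD rats (SD, n = 3), a 1.44-fold difference (log2 difference 0.53, SE 0.12, limma adjusted p = 0.0399), and was the only one of the 6 called. In this comparison 4.38% of features were called, and 0.280% were called higher. These shares rested on single rats: the 657 features called became 4 without control rat 1, 52 without control rat 2, 86 without PD rat 2, and 251 to 295 without control rat 3, stimulated control rat 1 or stimulated PD rat 1, while the 42 called higher became 2 to 138 over the 12 such fits and 159 with TMM. Mt-co2 was 1.40-fold higher in PD rats (log2 difference 0.48, SE 0.15, limma adjusted p = 0.0878), Mt-atp6 1.40-fold (0.48, SE 0.17, limma adjusted p = 0.121) and Mt-co3 1.34-fold (0.43, SE 0.16, limma adjusted p = 0.121), none of which passed. Mt-co1 and Mt-cyb were 1.24-fold and 1.21-fold higher, with limma adjusted p of 0.336 and 0.315, and 95% intervals of the fold of 0.932 to 1.64 and 0.950 to 1.54. PD and control rats did not overlap for any of the 6 genes, all higher in PD, against 5.81% of features. The call for Mt-atp8 was lost when any 1 control rat, PD rat 1 or 2, or rat 1 of either stimulated group was left out (largest limma adjusted p = 0.139). Over its 26 alternatives the adjusted p ran from 3.12e-05 to 0.145. DESeq2 on the recovered reads called all 6 genes, where it called 2037 of 14985 features, 897 of them higher. By edgeR 2 genes were called, Mt-atp8 and Mt-co2, where 475 features were called, 106 of them higher.

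The same genes were then compared within the stimulated rats, whose libraries do not enter those group means. Mt-atp8 averaged 1045 ± 53.1 CPM in stimulated control and rose to 1796 ± 176 CPM in stimulated PD rats (SD, n = 3), a 1.71-fold difference (log2 difference 0.78, SE 0.12, limma adjusted p = 0.0429), and again was the only one called, where 1.45% of features were called and 0.440% called higher. That background was not stable: the 217 features called became 2 to 6 when any 1 control or stimulated PD rat, or stimulated control rat 1 or 3, was left out, and 577, 868, 1876 and 2258 without PD rat 3, stimulated control rat 2, PD rat 1 and PD rat 2. The other 5 were 1.33-fold (Mt-cyb) to 1.51-fold (Mt-atp6) higher, with limma adjusted p from 0.0630 for Mt-co2 to 0.136 for Mt-co1. The rats of both groups did not overlap for any of the 6, all higher in stimulated PD rats, against 14.3% of features. The call for Mt-atp8 was lost when any 1 control or stimulated PD rat, or stimulated control rat 1 or 3, was left out (largest limma adjusted p = 0.191). Over its 26 alternatives the adjusted p ran from 3.36e-08 to 0.191. DESeq2 called all 6 genes, where it called 2019 of 14985 features, 1040 of them higher. By edgeR 1 gene was called, where 15 features were called, 8 of them higher. Mt-co2 passed without PD rat 1 or 2, and Mt-atp6 without PD rat 2. Both comparisons take the same residual variance per gene from all 12 libraries. The labels name no surgical cohort or sequencing batch, and one that coincided with the lesion cannot be told apart from it.

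No difference between stimulated PD and PD rats passed the test for any of the 6 genes, and the intervals were wide. Stimulated PD rats stood at 8920 ± 1455 CPM for Mt-cyb and PD rats at 8973 ± 476 CPM, and at 29287 ± 2244 and 29027 ± 3733 CPM for Mt-co1 (SD, n = 3). For Mt-co2 the values were 9524 ± 959 and 9638 ± 881 CPM, for Mt-co3 10935 ± 1486 and 11103 ± 949 CPM, for Mt-atp6 11457 ± 2372 and 11716 ± 1047 CPM, and for Mt-atp8 1796 ± 176 and 1704 ± 77.0 CPM. Stimulated PD and PD rats overlapped for each of the 6. By limma 0 of the 6 genes and 0% of all features were called, and 0 of the 6 had an unadjusted p under 0.05, against 17.4% of features; edgeR and DESeq2 called 0 of the 6 as well. The count over all features was 0 in the other fits run but 2943 without PD rat 1, 327 without stimulated PD rat 3 and 907 by DESeq2, with 0 of the 6 genes among them. The fold ran from 0.967 for Mt-atp6 (95% interval 0.743 to 1.26) to 1.05 for Mt-atp8 (95% interval 0.872 to 1.27), so the intervals leave room for moderate changes in either direction. The sign of these small differences depended on scaling for Mt-co1, Mt-co3 and Mt-atp8.

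In control rats the estimates for stimulation were below 1 for all 6 genes as deposited. The fold ran from 0.885 for Mt-atp8 (95% interval 0.734 to 1.07) to 0.932 for Mt-co3 (95% interval 0.737 to 1.18), and after quantile normalization the log2 difference of Mt-co1 was 0 and that of Mt-co3 slightly positive. By limma 0 of the 6 were called, with 0 at an unadjusted p under 0.05 against 1.79% of features, and edgeR and DESeq2 called 0 of the 6. For Mt-co1 and Mt-co3 each stimulated control rat was lower than each control rat, as for 3.40% of features. For Mt-co3 the closest pair were control rat 3 at 7772 CPM and stimulated control rat 2 at 7751 CPM. For the interaction, which asks whether stimulation acted differently in PD than in control rats, limma, edgeR and DESeq2 called 0 of the 6 genes, with log2 values from 0.07 for Mt-co3 to 0.25 for Mt-atp8 and 0 of the 6 at an unadjusted p under 0.05 against 4.13% of features.

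**Figure D3:**
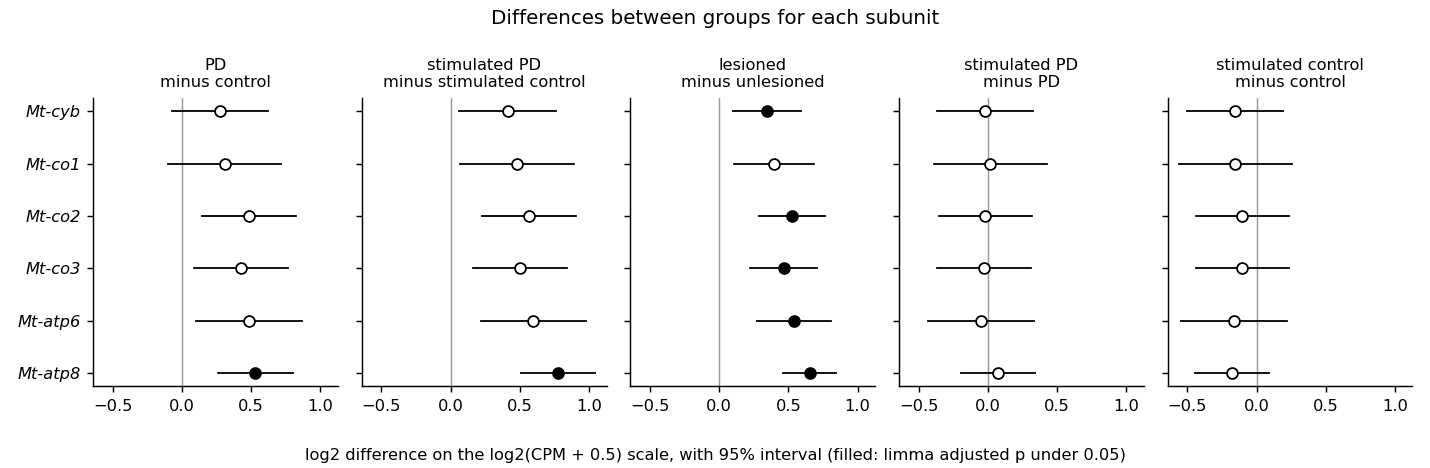
Log2 difference between groups for each gene (horizontal axes, log2(CPM + 0.5) scale) with its 95% interval; filled points passed a limma adjusted p under 0.05. The intervals of both stimulation comparisons include 0 for all 6 genes, and 5 of 6 points are filled in the comparison of lesioned with unlesioned rats.

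Stimulated PD rats were also compared with unstimulated controls, which share libraries with comparisons above. Their fold ran from 1.19 for Mt-cyb to 1.52 for Mt-atp8 (log2 difference 0.60, SE 0.12, limma adjusted p = 0.0830), and 0 of the 6 were called, as 0.0334% of features were. At an unadjusted p under 0.05 were 4 of the 6 genes, against 20.9% of features. The groups did not overlap for any of the 6, all higher in stimulated PD rats, against 15.4% of features. Mt-atp8 passed without PD rat 1 or 2 (limma adjusted p = 0.0231 and 0.0311), rats that enter only the estimate of spread. In the same fits the 5 features called in all became 1107 and 1217, and they became 71 without PD rat 3, 2859 with only the compared groups fitted and 1046 by DESeq2. Over 26 alternatives the adjusted p of Mt-atp8 ran from 0.000162 to 0.315, and DESeq2 called 4 of the 6 genes.

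The levels of the 6 genes moved together from rat to rat. Across the 12 libraries the 15 pairs of genes had Pearson's r from 0.913 (Mt-cyb with Mt-atp8) to 0.991 (Mt-co3 with Mt-atp6) on the log2(CPM + 0.5) scale. After each group's mean was removed, r ran from 0.538 to 0.972. The highest remained Mt-co3 with Mt-atp6, whose genes are adjacent in the mitochondrial genome, and the lowest was Mt-atp6 with Mt-atp8, which share a messenger RNA. Within a library the 6 genes share its depth and scaling, and the values are descriptions without a test. The labels do not say how reads from the overlap of Mt-atp8 and Mt-atp6 were counted, and reads of nuclear copies of mitochondrial genes may map to either place.

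Likeness to the 6 genes was also read in the remaining features. Of 14979 features outside the 6 genes, 16 had an r of at least 0.9 with the mean log2 level of the 6 over the 12 libraries, and the 5 closest had r from 0.923 to 0.976, with mean levels from 0.526 to 7960 CPM. No group mean was removed here, so this r also takes in the difference between lesioned and unlesioned rats. All 5 of these closest features were called higher in lesioned rats, against 4.99% of features. The most negative r was -0.96. The 5 closest are not named because their identifiers were not matched to symbols, and other mitochondrially encoded genes may be among them. The median r over all these features was -0.29.

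The make-up of the 6 genes' reads, which no scaling of a library changes, was then compared. Mt-cyb made up 13.5%, 13.6% and 13.1% of their reads in control rats 1 to 3 and 12.8%, 13.1% and 13.9% in stimulated controls, against 12.3%, 12.1% and 13.0% in PD rats and 12.2%, 11.9% and 12.9% in stimulated PD rats. Mt-atp8 made up 2.11% ± 0.0990 in unlesioned and 2.44% ± 0.181 in lesioned rats, and Mt-co2 12.6% ± 0.447 and 13.3% ± 0.205 (SD, n = 6). For each of these 3 genes single rats of both kinds overlapped. In the ratio of reads of Mt-atp8 to Mt-cyb they did not: it ran from 0.152 to 0.164 in unlesioned and from 0.178 to 0.227 in lesioned rats. The ratio of Mt-co2 to Mt-cyb ran from 0.910 to 0.968 and from 1.00 to 1.11, and the third such pair was Mt-cyb to Mt-atp6, at 0.859 to 0.939 and 0.738 to 0.818. These 3 of 15 pairs all contain Mt-cyb. Of all pairs among the 78 features at or above 1000 CPM, 16.5% did not overlap, so 3 of 15 is near that background, and the ratios were not tested.

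Lesioned rats also differed among themselves in this make-up. Mt-co1 made up 37.6% of the 6 genes' reads in PD rat 3 and 38.9% in stimulated PD rat 3, but 40.7% to 42.5% in the other 4 lesioned rats and 40.8% to 42.8% in unlesioned rats. In the same pair of rats Mt-atp6 took 17.3%, against 14.6% to 16.3% in the other lesioned rats and 14.6% to 15.3% in unlesioned rats. Their total shares were not alike: PD rat 3 had the lowest share of the 6 lesioned rats and stimulated PD rat 3 the highest. These rats share their number, 3 in the titles and 4 in the short descriptions, where no other rat is numbered 4, and the labels do not say whether a number stands for anything shared. The ratio of Mt-atp6 to Mt-atp8 reads, from a shared messenger RNA, was 7.13 ± 0.364 in unlesioned and 6.63 ± 0.812 in lesioned rats (SD, n = 6), from 5.38 in stimulated PD rat 2 to 7.62 in PD rat 2.

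**Figure D4:**
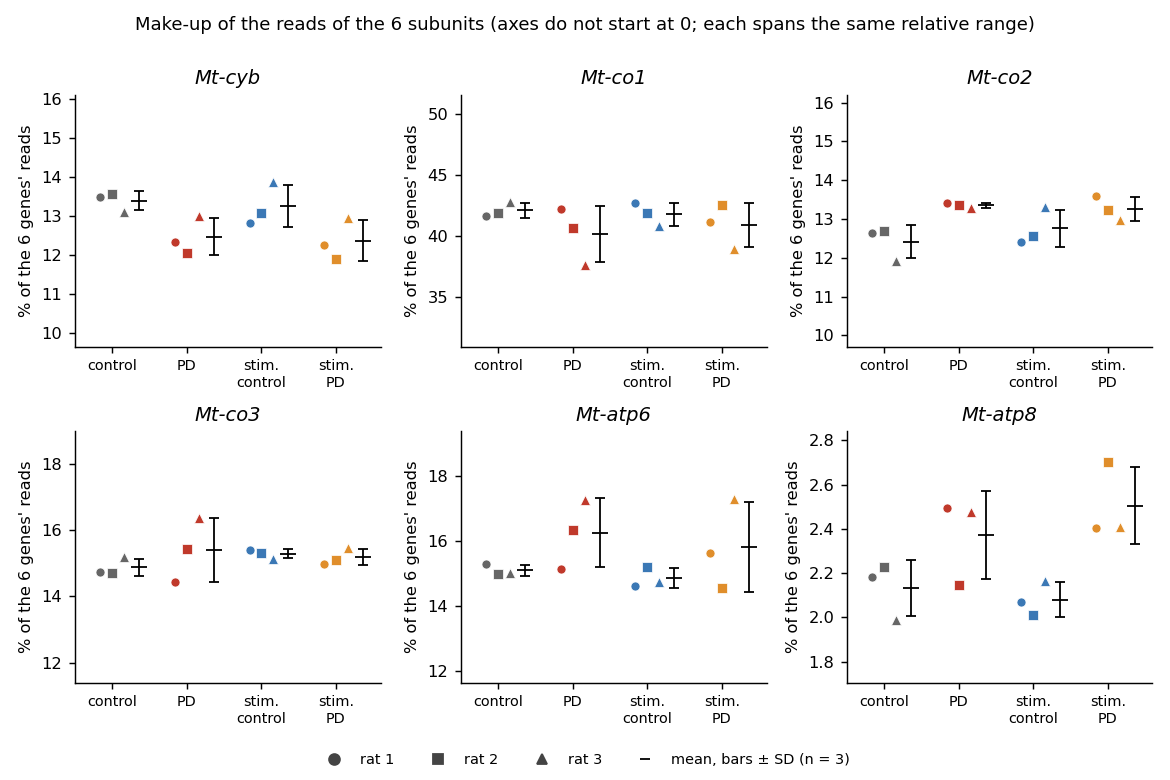
Percent of the 6 genes' reads that came from each gene (vertical axes, which do not start at 0 but span the same relative range) in each rat, with the group mean and SD. PD rat 3 and stimulated PD rat 3 have the lowest Mt-co1 shares, at 37.6% and 38.9%, and Mt-atp6 shares of 17.3%.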

How the data were processed

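Per the labels' protocols, a kit for stranded mRNA was used to prepare libraries. The submitters' processing notes list Trim Galore, STAR, featureCounts (no versions) and mRatBN7.2. The authors deposited CPM; for the strand setting, annotation release and treatment of multi-mapping reads no source used here gives a statement. All 12 columns were matched to a sample, with 0 left over. Each value was a whole multiple of its column's smallest step, which gave whole reads for 100% of values (tolerance 0.001 read). These reads were used for edgeR 4.0.16 and DESeq2 1.42.0.

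The main test was limma 3.58.1 (R 4.3.3) on log2(CPM + 0.5), run on 14985 features (mean CPM of 0.5 or more), with 1 coefficient per group, a trended prior variance and 8 residual degrees of freedom. The added 0.5 CPM barely moved the log2 differences of these abundant genes, but calls depended on it. For lesioned against unlesioned rats, adding 0.1 CPM gave limma adjusted p of 0.0417 for Mt-cyb and 0.0407 for Mt-co1. Adding 2 CPM gave 0.0533 and 0.0647. P-values were two-sided and Benjamini-Hochberg adjusted over all features; those under 0.05 are called. "Lesioned minus unlesioned" is the mean of both lesion contrasts. Script checks on simulated data recovered most of the changes put in. The labels number rats within a group but do not say how animals were handled.

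The members and lists were chosen with earlier results of these data known. The 23 gene lists fixed by symbol were not analysed, since 0 identifiers were matched to symbols; for the same reason only the 6 members are named, and the rule naming the 5 features most like them gave no name. No sequence of these genes was available in the tables used here. Alternatives are given in the closing section.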

Additional observations from a re-analysis of the deposited data

How the results depend on the processing

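The number of the 6 genes called between PD and control rats was 1 as reported, 0 after quantile normalization or with only the compared groups fitted, 2 by edgeR, 6 by DESeq2 and 0 to 1 without any 1 rat. Between stimulated PD and stimulated control rats it was 1, and 4 with a minimum of 5 CPM, where 292 of 11730 features were called. By DESeq2 it was 6, and without any 1 rat 0 to 3. Between lesioned and unlesioned rats it was 5, 1 after quantile normalization, and 4 to 6 under each other alternative but one, below. Between stimulated PD and control rats it was 0, 1 with only those groups fitted, 4 by DESeq2 and 0 to 1 without any 1 rat. Stimulation and the interaction gave 0 under each alternative run. The call for Mt-cyb between lesioned and unlesioned rats was lost with 2 CPM added before taking logs (limma adjusted p = 0.0533). It was also lost without the filter on low values (limma adjusted p = 0.106).

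The labels do not say what the rat numbers stand for, and they were not taken as pairs. Between groups, deviations of rats with the same title number correlated from -0.46 to 0.362, and with different title numbers from -0.37 to 0.5. Of 12 libraries, 2 correlated best with their own title number and 0 with their own number in the short description. With the title number as a replicate block, 0, 0 and 4 genes were called in the first 3 comparisons; with the number of the short description as a block, added after seeing the data, 0, 0 and 1. Between lesioned and unlesioned rats the title block gave an adjusted p of 0.0995 for Mt-cyb, and the description block 0.234 for Mt-cyb, 0.0647 for Mt-co2, 0.104 for Mt-co3 and 0.0945 for Mt-atp6, with Mt-atp6 (log2 difference 0.47) then below Mt-co2 (0.52). The denominator without the 6 genes was also added then, in place of the planned one without all mitochondrially encoded features, which was not run because those features were not matched.

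After quantile normalization the log2 difference of Mt-cyb was -0.061 in PD, -0.062 in stimulated PD and -0.062 in lesioned rats against their controls and -0.12 in stimulated PD against control rats; that of Mt-co3 was -0.021 in the first 3, 0.021 in stimulated PD against PD and 0.021 in stimulated control against control rats; the interaction was -0.00088 for Mt-cyb and -0.011 for Mt-co2. In stimulated PD against PD rats, Mt-co1 was -0.063 with TMM, -0.071 with median-of-ratios factors, -0.061 by edgeR and -0.074 by DESeq2, and Mt-atp8 was -0.0097 with TMM, -0.017 with median-of-ratios factors and -0.0062 by DESeq2. Without any 1 rat this difference ran from -0.15 to 0.059 for Mt-cyb, -0.089 to 0.094 for Mt-co1, -0.099 to 0.048 for Mt-co2, -0.14 to 0.041 for Mt-co3 and -0.21 to 0.062 for Mt-atp6, and the interaction from -0.034 to 0.14 for Mt-co3 and -0.046 to 0.23 for Mt-atp6. The share of stimulated controls was 4.73% of a TMM-scaled total. Among all features called, the percent higher went from 6.39% to 31.3% (PD against control), 30.4% to 68.6% (stimulated pair) and 21.7% to 54.0% (lesioned against unlesioned) with TMM. Quantile normalization fixes the value at each rank, but not which gene holds that rank. The cause of these shifts was not tested.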
